A study of Drosophila melanogaster with 3 samples.

Results

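MicroRNA (miRNA) genes encode short RNA hairpins, which are cut into mature RNAs that lower the output of messenger RNAs carrying a match to the seed, the stretch near the 5′ end of the mature RNA. The genes described here are the 262 fly miRNA genes among 17873 annotated genes other than transposable elements. They were taken by name, as every gene whose symbol starts with mir- or let-7 in the Ensembl 115 annotation of the release 6 genome (dm6), which writes let-7 as mir-let7. Of these, 260 lay on chromosome arms that hold peaks and 2 on a ribosomal DNA scaffold. The annotated hairpins were 50 to 174 bp long.

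Binding of the ecdysone receptor EcR was mapped by chromatin immunoprecipitation and sequencing (ChIP-seq) in whole Drosophila melanogaster pupae aged 24 h. The 3 biological replicates, from separate biosamples, form 1 group, the strain EcR-GFP. It is a single transgenic line that stably expresses EcR with eGFP at its C-terminus, both sexes were mixed, and the chromatin was sonicated. The sample descriptions give an antibody against GFP while the antibody label reads EcR, so whether untagged EcR was also recovered cannot be told from the labels. Whole animals mix all tissues, so a peak does not say in which cells the receptor was bound, and with no second stage, line or hormone level no site can be called gained or lost. A peak list was available for each replicate (30000 peaks each), for the pooled replicates (30000), and as an optimal list of 9095 peaks kept by the irreproducible discovery rate, which are the strongest 9095 of the pooled list. Read depth is unknown. Ranks below are ranks by the authors' signal value within a list, with 1 the strongest. A replicate was counted as holding a peak when 1 of its own 9095 strongest peaks had a summit within 100 bp.

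Ecdysone is the steroid hormone whose pulses time moulting and metamorphosis in insects. It acts through EcR, a nuclear receptor that binds DNA with its partner ultraspiracle (usp), at sites that include an inverted repeat of receptor half-sites. In Drosophila, let-7, miR-100 and miR-125 are made from 1 long primary transcript that appears as metamorphosis begins and depends on ecdysone, whereas miR-34 is lowered by the hormone. miR-14 limits the level of EcR itself, and miR-8 is repressed by ecdysone in growth control.

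The mature RNAs of the genes with the results that follow are shown because the seed, in capitals (bases 2 to 8), is what groups miRNAs by their potential targets. They are from RefSeq, release 6, written 5′ to 3′, with the let-7 cluster first.
let-7: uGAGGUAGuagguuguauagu
miR-100: aACCCGUAaauccgaacuugug
miR-125: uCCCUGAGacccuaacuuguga
miR-34: uGGCAGUGugguuagcugguugug
miR-277: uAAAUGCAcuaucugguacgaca
miR-317: uGAACACAgcuggugguauccagu
miR-279: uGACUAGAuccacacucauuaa
miR-996: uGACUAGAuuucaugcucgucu
miR-2a-1: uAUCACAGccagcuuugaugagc
miR-2b-2: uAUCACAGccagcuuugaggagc
miR-11: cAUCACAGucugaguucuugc
miR-275: uCAGGUACcugaaguagcgcgcg
miR-305: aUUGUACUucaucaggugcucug
miR-276a: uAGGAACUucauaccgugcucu
bantam: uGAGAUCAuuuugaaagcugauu
miR-282: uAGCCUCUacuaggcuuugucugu
miR-9a: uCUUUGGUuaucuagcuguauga
The 3 RNAs of the let-7 cluster have 3 different seeds. miR-279 and miR-996, which come from neighbouring hairpins, share 1 seed, and so do miR-2a-1 and miR-2b-2, neighbours in the gene spi, and miR-11, from the gene E2f1.

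Bases under the summits of 4 peaks described below are shown next, each as 101 bp of the plus strand of release 6 centred on the summit. They are the 2 strongest peaks of the let-7 host transcript, the peak beside mir-277 and mir-34, and the peak at the start of the mir-279 and mir-996 host. Capitals mark an inverted repeat of half-sites with a 1-base spacer at rank 150 and rank 1455, and a half-site at rank 48.
let-7 host, rank 80, chr2L:18468622-18468722: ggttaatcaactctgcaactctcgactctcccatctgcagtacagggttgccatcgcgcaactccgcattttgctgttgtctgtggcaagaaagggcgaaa
let-7 host, rank 150, chr2L:18465870-18465970: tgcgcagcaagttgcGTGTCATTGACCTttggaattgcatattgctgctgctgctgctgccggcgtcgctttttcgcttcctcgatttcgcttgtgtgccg
mir-277 and mir-34, rank 1455, chr3R:10099675-10099775: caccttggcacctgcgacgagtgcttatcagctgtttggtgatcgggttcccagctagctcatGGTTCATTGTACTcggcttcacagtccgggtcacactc
mir-279 and mir-996, rank 48, chr3R:29214320-29214420: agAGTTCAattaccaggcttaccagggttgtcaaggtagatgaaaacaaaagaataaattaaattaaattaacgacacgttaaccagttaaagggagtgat
The strongest peak of the let-7 host had neither an inverted repeat nor a half-site within 100 bp of its summit.

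The let-7, mir-100 and mir-125 hairpins lie within 991 bp of each other, near the 3′ end of the long noncoding RNA lncRNA:let7C (FBgn0263049, chr2L:18455717-18473132, plus strand, 17416 bp). mir-100 (FBgn0262463) is at chr2L:18471434-18471533, mir-let7 (FBgn0262406) at chr2L:18472034-18472111 and mir-125 (FBgn0262456) at chr2L:18472315-18472424. EcR-GFP peaks were spread over the host transcript ahead of the hairpins: the host with 2 kb upstream held 16 optimal summits. This was more than any other of the 39 noncoding genes that host a miRNA, with no allowance for host length. Some protein-coding hosts held more, such as Glut4EF with 25. The 16 summits lay in 7 peak regions, since a wide region can hold several summits. The replicates' own strongest lists held 18, 17 and 16 summits there (mean 17 ± 1, SD, n = 3). Of the 16 optimal summits, 14 were found in all 3 replicates, against 66.2% of all optimal peaks. Optimal peaks had already been selected on agreement between these replicates. In the strongest 25% of the optimal list there were 10 of the 16.

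The strongest summit of the host, rank 80, lay 12955 bp from its annotated start and 2762 bp ahead of mir-100, with ranks 74, 113 and 72 in replicates 1, 2 and 3. The second, rank 150, lay 10203 bp from the start, with ranks 136, 165 and 144. The third, rank 270, lay at 8522 bp, with ranks 231, 272 and 287. All 3 lay in introns of the host, and no replicate ranked any of them below 287. Rank 421, at 1671 bp, had replicate ranks 559, 553 and 367, also in an intron but nearer the start. At the start itself the peak was weaker: a summit 99 bp upstream had rank 2468, was found in replicates 1 and 2 at ranks 1256 and 1614, and was not found in replicate 3. The summit at 544 bp, rank 1088, was found in all 3 at ranks 2285, 1110 and 765. The other summits of the host had ranks from 802 to 6513.

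Most of this binding lay far from the hairpins. All 16 optimal summits were on the 5′ side of mir-100, and 14 were more than 2 kb from every hairpin of the cluster. The 2 nearer ones were rank 802, 1559 bp ahead of mir-100 (replicate ranks 596, 724 and 1147), and rank 3618, 1358 bp ahead of mir-100 and 1958 bp ahead of mir-let7 (2934, 3600 and 7916). Through these, mir-100 had 2 optimal summits within 2 kb and mir-let7 had 1. mir-125 had none, its nearest optimal summit being 2239 bp away. The pooled list added a weak summit at rank 18344, 21 bp from mir-125 and 183 bp from mir-let7, which was not among the strongest peaks of any replicate.

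**Figure D1:**
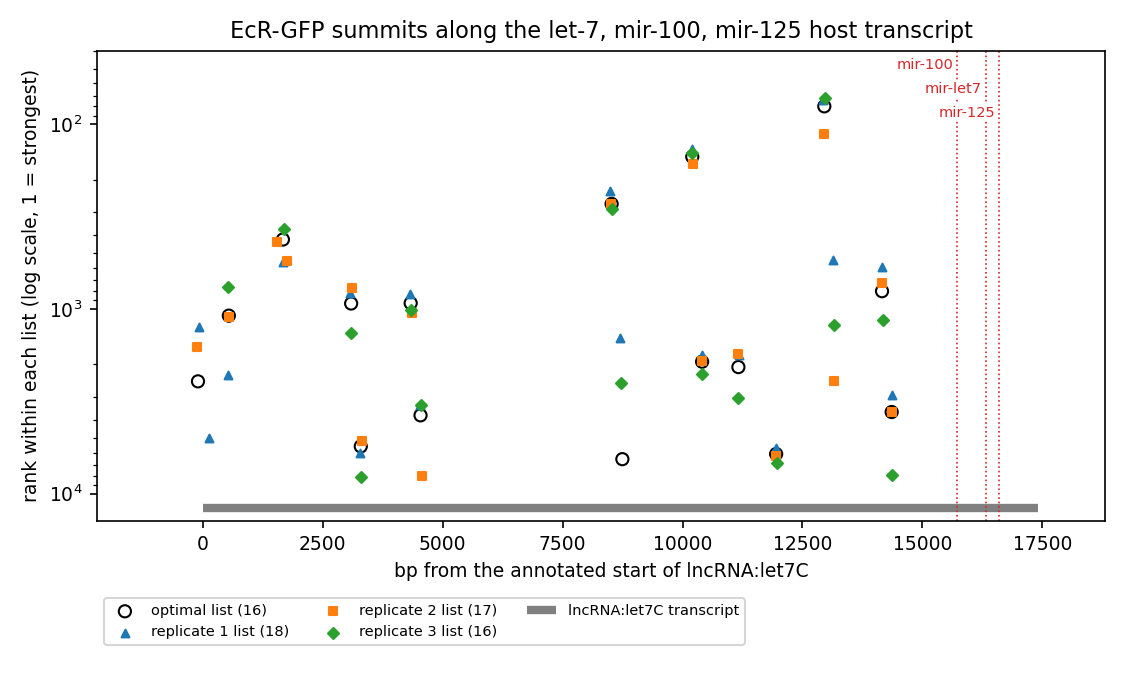
Summits along lncRNA:let7C. The horizontal axis is the distance in bp from its annotated start, the vertical axis the rank within each list on a log scale with the strongest at the top; open circles are the optimal list and filled symbols the 3 replicates' strongest peaks, the grey bar is the transcript and dotted lines mark the starts of the 3 hairpins. The 16 optimal summits all lie ahead of the hairpins, and the strongest, rank 80, is 12955 bp from the start.

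An inverted repeat with at most 1 mismatch was found within 100 bp of 2 of the 16 summits of the host. Over all optimal peaks the share was 4.84%. Both summits lay in the same peak region, and so few sites do not show that the host is rich in them. The first, GTGTCATTGACCT at chr2L:18465885-18465897, is the 1 in capitals under the rank 150 summit, with 1 mismatch and its centre 29 bp from the summit. The second, AGTTCATTGAACG at chr2L:18466828-18466840, lay 47 bp from the rank 2066 summit, also with 1 mismatch. A match describes the letters and is no evidence that the receptor contacts them.

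Over all miRNA genes, a gene is called bound here when an optimal summit lay within 2 kb of its hairpin on either side. By that measure 55 of the 262 (21%) were bound. The same distance gave 35.2% of all other annotated genes and 29.2% of the 613 tRNA, snRNA and snoRNA genes, which are also short. Gene length sets how far such a window reaches, so the share for all other genes is not matched to hairpins. With the replicates' own strongest peaks, 52, 59 and 56 miRNA genes were bound (19.8%, 22.5% and 21.4%; mean 21.2% ± 1.34, SD, n = 3). Other genes gave 34.6%, 35.2% and 34.6% (34.8% ± 0.358), and the tRNA, snRNA and snoRNA genes 30.5%, 30.5% and 28.1% (29.7% ± 1.41). The miRNA share was the lowest of the 3 in every replicate. The SD is over replicates of the same genes, so it does not measure the uncertainty of a share over genes. Neighbouring hairpins can also share a summit and are not independent. The order against the short RNA genes depended on the distance: within 500 bp, 9.92% of miRNA genes and 8.97% of short RNA genes had a summit, against 24.7% of other genes. Within 5 kb the shares were 41.6%, 53.7% and 49.4%. With 1 group there is no contrast to test, and these shares are given as descriptions.

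**Figure D2:**
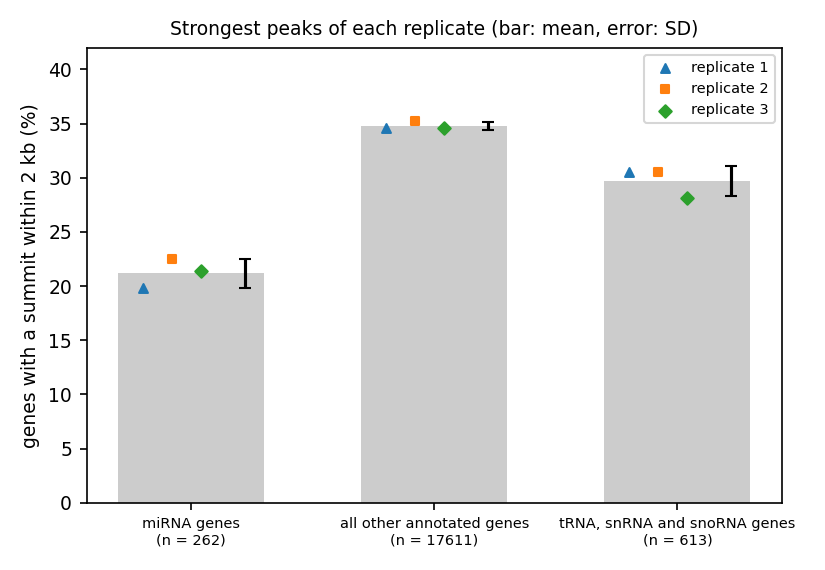
Percent of genes with a summit within 2 kb among the 9095 strongest peaks of each replicate, for miRNA genes, all other annotated genes, and tRNA, snRNA and snoRNA genes. Bars are means over the 3 replicates, error bars are SD and symbols are replicates. The miRNA genes lie at 19.8% to 22.5%, below both other sets in each replicate.

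Binding at individual miRNA genes was also compared between replicates. There were 46 genes bound in all 3 replicates, and each of those 46 was bound in the optimal list too. The optimal list comes from these same replicates, so that overlap is no separate support. The matching counts for other genes are not given here. A further 8 were bound in exactly 2 replicates, 13 in exactly 1 and 195 in none. The pooled list, which reaches weaker peaks, had a summit within 2 kb of 107 miRNA genes (40.8%), against 53.9% of all other genes and 62% of the tRNA, snRNA and snoRNA genes. Thus 52 miRNA genes had a pooled summit only, and 155 (59.2%) had neither.

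Host transcripts differed in this respect. A host is a gene that contains the hairpin on the same strand. Of the 48 miRNA genes in a noncoding host, 16 (33.3%) were bound, and of the 136 in a protein-coding host 32 (23.5%) were. The share was 4 of 27 (14.8%) where the only gene over the hairpin was on the opposite strand, and 3 of 51 (5.88%) where there was none. Hairpins of 1 cluster were counted separately in these shares. The 48 include the 2 hairpins on the ribosomal DNA scaffold, which holds no optimal peak. The host as a whole was bound more often than the 2 kb around the hairpin: 63 of 128 protein-coding hosts (49.2%) and 21 of 39 noncoding hosts (53.8%) had an optimal summit in the gene body or 2 kb upstream, against 30.6% of all protein-coding genes. Hosts are often long genes, which raises that share, and their length was not matched here. The 2483 ncRNA genes on the same arms that host no miRNA had an optimal summit in the body or 2 kb upstream in 23.1% of cases. Of 37 noncoding hosts on arms with peaks, 16 (43.2%) had a summit within 500 bp of their outermost start and 20 (54.1%) within 2 kb, against 12.6% and 26.4% of those 2483 genes. The mir-252 hosts asRNA:CR17025 and asRNA:CR46354, counted apart here, share the same start and the same summit of rank 5045.

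Hairpins of 1 strand with gaps of at most 10 kb were joined into 203 clusters, since neighbours can share a transcript and a summit. Of these, 47 (23.2%) were bound. Clusters of more than 1 hairpin were bound in 8 of 22 cases (36.4%), which counted 16 of their 79 hairpins (20.3%). Single hairpins were bound in 39 of 181 cases (21.5%). The 14 unbound ones include the largest, the 12-hairpin mir-972 to mir-979 cluster, with no pooled summit either. Pooled summits alone were near 3 of the 14: mir-13b-1, mir-13a and mir-2c; the 7 hairpins from mir-310 to mir-992; and mir-994 with mir-318.

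The 55 bound genes were reached by 83 optimal summits in 66 peak regions. There was 1 summit within 2 kb of 28 genes, 2 of 17, 3 of 8 and 4 of 2, and 11 summits reached more than 1 hairpin. Ranks ran from 48 to 8947 with a median of 4215, close to the middle of the list, and 8 were among the strongest 500 peaks. In successive 25% steps of the list from the strongest down, there were 27, 19, 22 and 15. In the individual replicates 73, 73 and 71 of the 83 were found (87.1% ± 1.39, SD, n = 3). All 3 replicates held 58 of them (69.9%), against 66.2% of all optimal peaks. A pair of replicates held 18, and a single replicate held 7. Both shares come after a selection on agreement between the same replicates.

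Summits lay on both sides of the hairpins, 46 on the 5′ side, 36 on the 3′ side and 1 inside a hairpin, that of mir-4962. Within 500 bp of a hairpin there were 28. By annotation, 33 (39.8%) were within 500 bp of a start of a gene other than a miRNA gene, here called promoters, 19 (22.9%) in exons, 28 (33.7%) in introns and 3 (3.61%) between genes. All optimal summits gave 36.3%, 5.83%, 45.6% and 12.3% for the same classes. Exons thus held a larger share near hairpins, and many of these exons belong to noncoding hosts. The sequence around hairpins was not matched to the genome for its exon content, so these shares are descriptions only. Of the 33 promoter summits, 27 were at a start of the miRNA's own host and 6 at that of another gene.

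**Figure D3:**
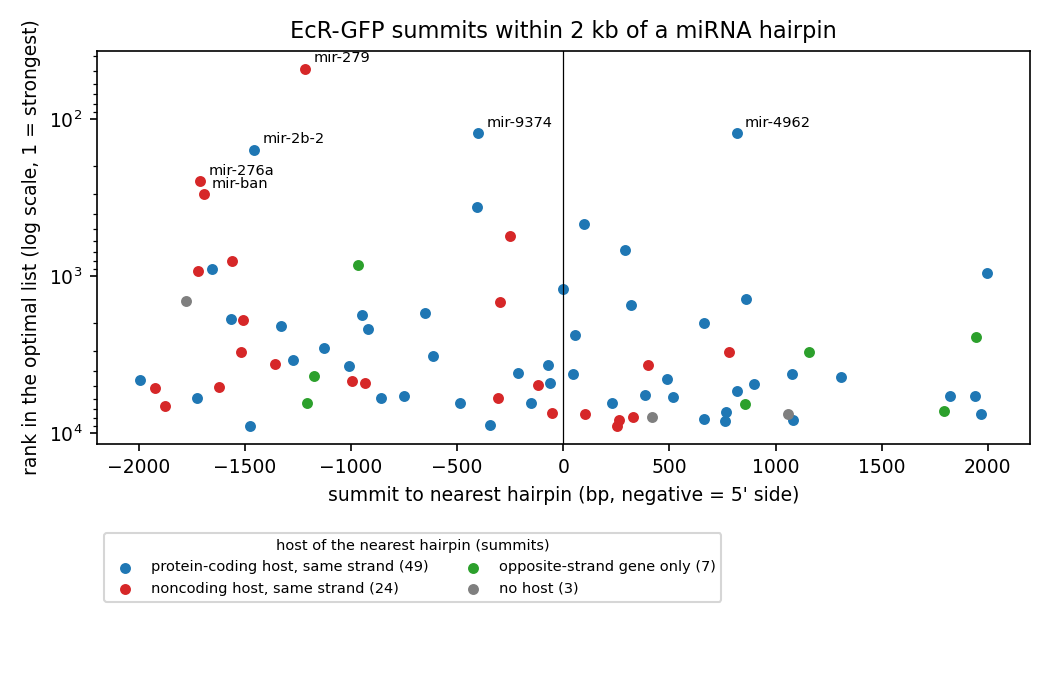
The 83 optimal summits within 2 kb of a hairpin. The horizontal axis is the distance in bp from the nearest hairpin (negative on its 5′ side), the vertical axis the rank in the optimal list on a log scale with the strongest at the top, and colours give the kind of host. The strongest summits include mir-279, rank 48, and 46 summits lie on the 5′ side against 36 on the 3′ side.

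The strongest peak near any hairpin was that of mir-279 and mir-996, which in flies act in the choice of olfactory neuron type. It had rank 48 in the optimal list and 67, 42 and 45 in replicates 1, 2 and 3, at chr3R:29213656-29215644. Its summit was 192 bp upstream of the start of their noncoding host lncRNA:CR31044 and 1215 bp ahead of mir-279, so the peak is at the host's promoter. It is more than 2 kb from mir-996, which was itself reached by the next 2 summits. A second summit between that start and mir-279 was much weaker, rank 5986, found in replicates 2 and 3 at ranks 3685 and 6726. The weakest, rank 8947, lay 252 bp past mir-996 and was found in replicate 3 alone, at rank 7957.

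Noncoding hosts held 4 more of the 15 clusters with the strongest peaks, besides this one and the let-7 cluster. mir-276a, a miRNA of the brain, had rank 248 (replicates 286, 481 and 167) in an exon of lncRNA:CR46006, 1710 bp ahead of the hairpin at chr3L:10362813-10364163. The summit was also 501 bp from an inner annotated start of this host. That host held 10 optimal summits, the second most after lncRNA:let7C. bantam (mir-ban), a growth-promoting miRNA that represses the cell death gene hid, had rank 301 (replicates 351, 364 and 263), at chr3L:639760-641042, in an exon of lncRNA:CR43334 and 1694 bp ahead of the hairpin. A second summit, 783 bp past bantam, had rank 3020 (4410, 3541 and 2491). The rank 301 summit was also 800 bp past an inner annotated start of lncRNA:CR43334. The outermost start of this host, 13773 bp ahead of the hairpin, had a summit 83 bp upstream at rank 2749, with replicate ranks 2816, 2779 and 2804. The peak near the inner start thus ranked above the peak at the outermost start in every replicate.

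mir-275 and mir-305 had 4 summits between them, the strongest of rank 553 (replicates 564, 794 and 425) in an exon of lncRNA:CR43857, 250 bp ahead of mir-275. mir-305 starts past the annotated end of that host. The weakest of the 4, rank 7561, was 99 bp from a start of muc. A peak stronger than all 4, rank 89 with replicate ranks 76, 90 and 106, lay 1257 bp upstream of the host's start. Its summit was in an exon of another gene and too far from the hairpins to be counted above. mir-282 had rank 928 (665, 762 and 1509), 37 bp from the start of its host lncRNA:CR43626 and 1719 bp ahead of the hairpin, in a region of 5696 bp that also reaches the start of CG43389.

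**Figure D4:**
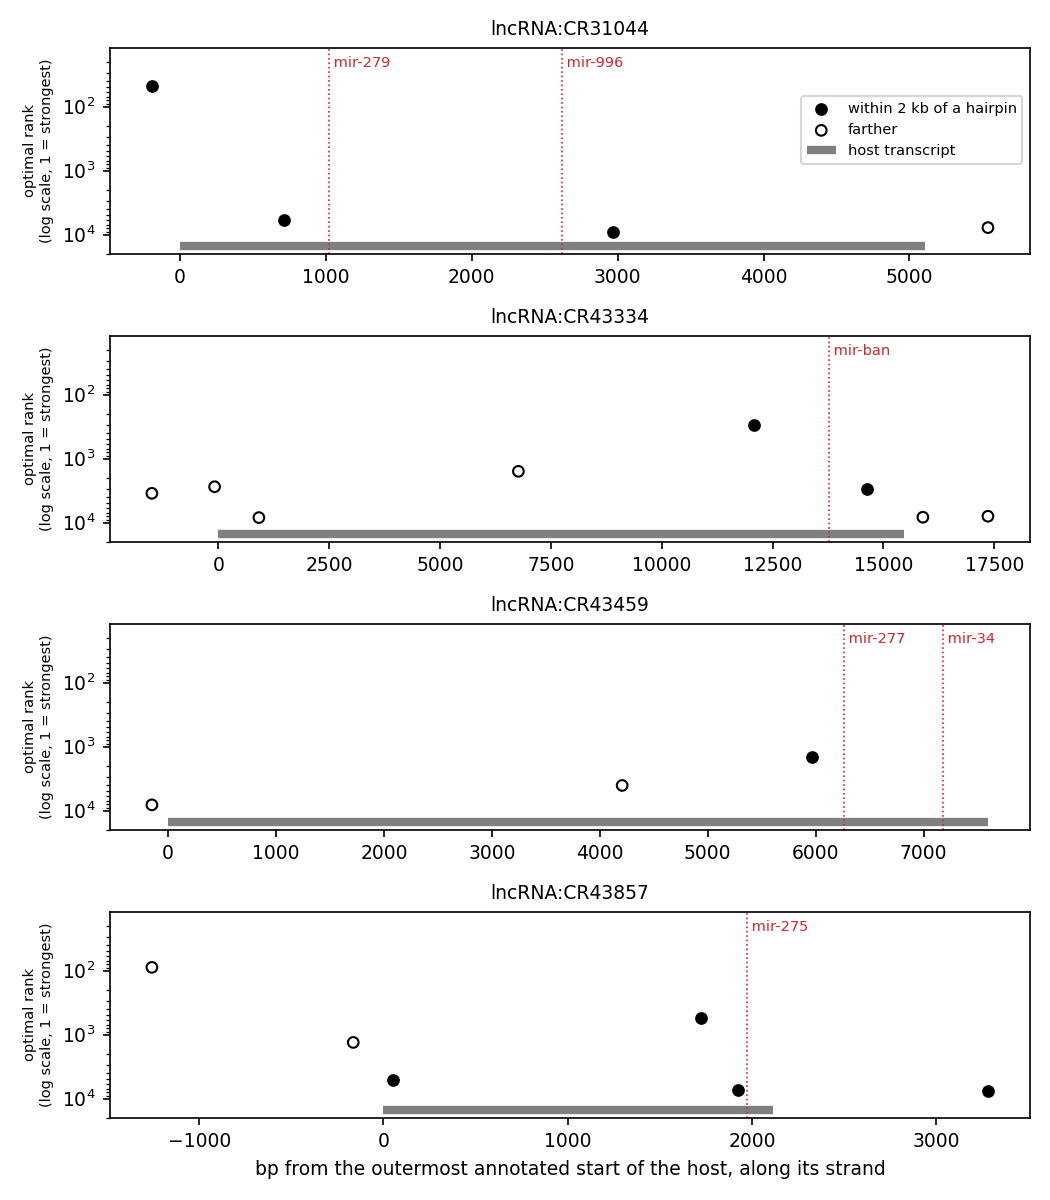
Optimal summits along 4 noncoding hosts. The horizontal axis is the distance in bp from the host's outermost start along its strand, the vertical axis the optimal rank on a log scale with the strongest at the top; filled circles are within 2 kb of a hairpin and open circles farther, the grey bar is the transcript and dotted lines mark hairpin starts. The strongest summit is at the start of lncRNA:CR31044 (rank 48), inside lncRNA:CR43334 and lncRNA:CR43459 (ranks 301 and 1455), and 1257 bp upstream of lncRNA:CR43857 (rank 89).

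The other leading clusters lay in or over protein-coding genes. mir-9374 is in an intron of Hr39, which encodes a nuclear receptor, and had rank 123 (replicates 147, 129 and 107), 401 bp ahead of the hairpin. That summit was also 650 bp from a start of Hr39. Hr39 held 8 optimal summits. mir-4962 is in Tlk, a gene for a tousled-like kinase with 22 summits, of which 4 were within 2 kb of the hairpin. The strongest had rank 124 (106, 116 and 154), 817 bp past the hairpin, and the 1 inside the hairpin had rank 1216 (1765, 1470 and 1004). The cluster of mir-2a-2, mir-2a-1 and mir-2b-2 is in spi, the gene of the EGF receptor ligand spitz. Its strongest peak had rank 157 (143, 117 and 182), in an exon of spi and 890 bp from a start of spi. The peak lay 1456 bp ahead of mir-2b-2 and 1748 bp ahead of mir-2a-1. The third hairpin, mir-2a-2, was 2159 bp from it and was not bound.

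mir-966 had rank 366 (453, 440 and 314) at the promoter of Pfas, a purine synthesis gene, 406 bp ahead of the hairpin. mir-4914, in CG31689, had rank 467 (340, 560 and 510), 100 bp past the hairpin. mir-4985, in the fatty acid transport protein gene Fatp3, had rank 686 (889, 845 and 490), 291 bp past it. For these genes, and for every other hairpin in a coding host, the summit cannot be ascribed to the miRNA rather than to its coding host. mir-4978 lies opposite mam, which encodes the Notch coactivator mastermind, and had rank 852 (824, 732 and 1073), 967 bp ahead. mir-2497, in her, had rank 957 (1011, 912 and 1018), at the promoter of the neighbouring gene squ and only just within reach, 1998 bp past the hairpin. mir-4949, in ATPsynC, a gene for a subunit of ATP synthase, had rank 1399 and ranks 1553 and 1516 in replicates 1 and 2, with no match in replicate 3. The same region held a second summit, rank 1991, which replicate 3 had at rank 1210, so that replicate lacked the first summit within 100 bp and not the region.

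**Figure D5:**
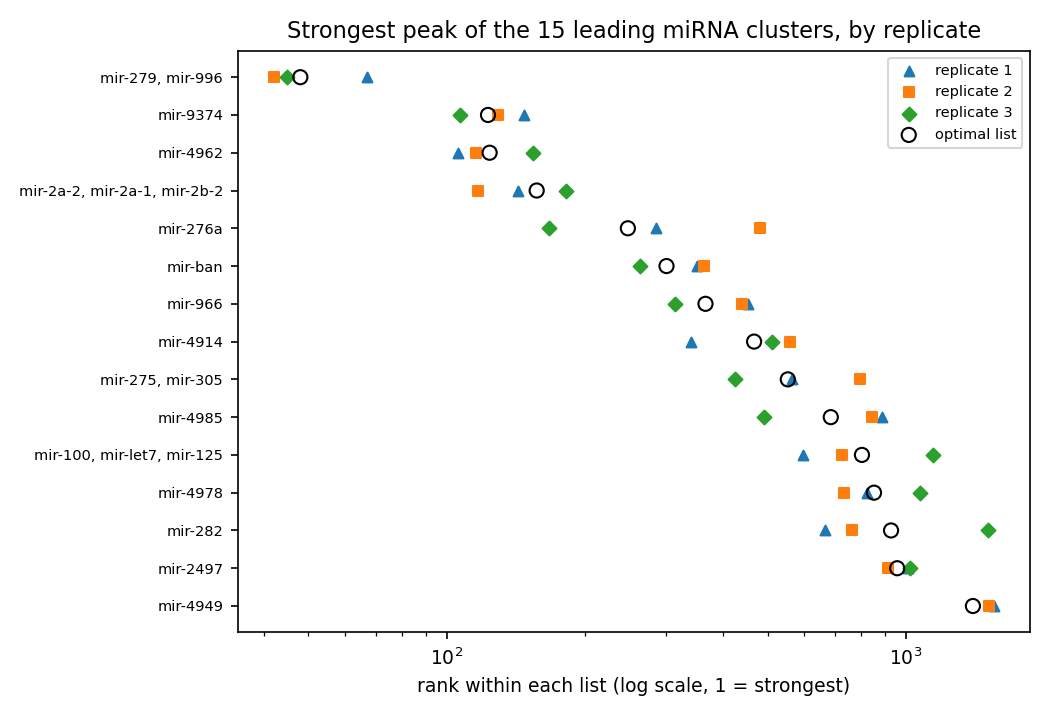
Rank of the strongest peak of each of the 15 leading miRNA clusters. The horizontal axis is the rank within each list on a log scale, rows are clusters, open circles are the optimal list and filled symbols the 3 replicates. The mir-279 and mir-996 peak is at 42 to 67 in the replicates, and mir-4949 has no replicate 3 symbol.

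A list of 6 miRNAs was picked by hand for a known link to ecdysone: let-7, mir-100, mir-125, mir-34, mir-14 and mir-8. The list may leave out other linked miRNAs, so the counts depend on that choice. Of the 6, 5 were bound and all 6 had a pooled summit, beside 21% and 40.8% of all miRNA genes. These are not separate sites, since 3 of the 6 are 1 cluster and mir-100 and let-7 share the rank 3618 summit. mir-34 shares a stretch of 9909 bp with mir-277 and mir-317, all bound. A summit of rank 1455 (replicates 2276, 1395 and 1273) lay in an exon of the host lncRNA:CR43459, 297 bp ahead of mir-277 and 1211 bp ahead of mir-34. The bases under it are shown above, with an inverted repeat, GGTTCATTGTACT at chr3R:10099738-10099750, of 1 mismatch. mir-317 had a separate summit of rank 1437 (1545, 2101 and 1203), 1776 bp ahead of the hairpin in an exon of lncRNA:CR45054. Another, rank 4045, was just out of reach of mir-277, at 2054 bp, and the start of lncRNA:CR43459 had a weak one, rank 8136, found in replicates 1 and 2 at 8729 and 7223 and not in replicate 3.

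mir-14 and mir-8 had middling peaks. mir-14 had rank 4622 (replicates 5382, 4801 and 4463), 78 bp from the start of its host lncRNA:CR43651 and 996 bp ahead of the hairpin, and rank 8268 past it. mir-8 had rank 4750 (5486, 6630 and 4030), 193 bp from a start of its host lncRNA:CR43650 and 936 bp ahead of the hairpin, and rank 7496 past it. The host of mir-8 held 9 optimal summits, the strongest of rank 1376 (1108, 1625 and 1406) and far past the hairpin, 9196 bp from the host's outermost start.

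The remaining bound genes had a strongest peak weaker than those of the 15 leading clusters. In protein-coding hosts, mir-4968 (Mob2), mir-9377 (Tis11), mir-9378 (CG17124), mir-3645 (Mlc-c), mir-967 (bun) and mir-2493 (CG42788) had ranks between 1707 and 3749. mir-281-2 and mir-281-1 (Oda), mir-998 and mir-11 (E2f1), mir-2281 (cv-c) and mir-4959 (Inx5) had ranks between 4402 and 4871, except that mir-998 itself was reached only by rank 6448. E2f1 encodes the cell cycle factor whose cell death output miR-11 limits, and it held 23 optimal summits. mir-1013 (wts), mir-4965 (Nup153), mir-4955 (trol), mir-92a (jigr1), mir-4912 (Fnta) and mir-986 (Cyp4e2) had ranks between 5716 and 6383. mir-1009 (CG3860), mir-4943 (CG5953), mir-2492 (Drak), mir-308 (RpS23) and mir-9370 (Amun) had ranks between 7317 and 8780. In noncoding hosts, mir-bft had rank 3650, mir-252 rank 5045, mir-1000 rank 6646 and mir-9a rank 7811. bereft (mir-bft) protects sensory bristle cells from death, and miR-9a limits the number of sense organ precursors. mir-87, mir-9380 and mir-980, opposite other genes, had ranks 2424, 6407 and 6475, and mir-11182, with no host, had rank 7912. The strongest peaks of mir-986, mir-1009, mir-9a and mir-11182 were each found in 1 replicate. Several of these summits had their nearest start, within 500 bp, at a gene that does not host the hairpin. That of mir-281-2 and mir-281-1 was 115 bp from SmD3, and that of mir-87 435 bp from lncRNA:CR45949. Those of mir-9380, mir-980 and mir-11182 were 172, 316 and 462 bp from Atg13, ewg and CG5726. The summits of mir-4959 and mir-308 lay between genes, outside the hosts.

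The 2 kb limit fell between close values. The 3 genes just inside were mir-4943 at 1966 bp (rank 7508), mir-11 at 1996 bp (rank 4540) and mir-2497 at 1998 bp (rank 957). Just outside were summits 2037 bp from bantam (rank 8235), 2044 bp from mir-1008 (rank 8530) and 2054 bp from mir-277 (rank 4045). mir-1008 had no nearer optimal summit, whereas mir-11, mir-2497, bantam and mir-277 each had one well inside.

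Hairpins that share a seed were not always bound alike. A hairpin was placed in a family when a mature RNA from either side of it had the seed. Which side gives the main product was not considered. Families were formed only for the seeds of selected miRNAs, nearly all of them bound. A bound member in a family therefore follows from that choice and is no result about seeds. The largest of these families, with the seed AUCACAG, includes the mir-2 miRNAs, which repress cell death genes. It has 14 hairpins, of which 4 were bound, beside 21% of all miRNA genes. These were mir-2a-1 and mir-2b-2 in spi, mir-11 in E2f1 and mir-308 in RpS23. The unbound ones include mir-2c, mir-13a, mir-13b-1, mir-5 and the mir-6 hairpins. In the GACUAGA family mir-279 and mir-996 were bound and mir-286 was not. Of mir-276a and mir-276b the first was bound, of mir-275 and mir-306 the first, and of mir-9a, mir-9b and mir-9c the first. mir-317 and mir-4943 share GAACACA, and both were bound.

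Receptor motifs occurred at miRNA peaks at about the share seen over all peaks. An inverted repeat of half-sites with a 1-base spacer, with at most 1 mismatch on either strand within 100 bp of the summit, was found at 4 of the 83 (4.82%), against 4.84% of all optimal peaks. These were GGTTCAATGAACC at mir-966 (chr2L:6046142-6046154), GGTTCATTGTACT at mir-277 and mir-34 (chr3R:10099738-10099750), GGTTCATTGAACT at mir-bft (chr2L:11953009-11953021) and GGGTCATTGACCC at mir-9378 (chr2L:10751030-10751042). The sites at mir-966, mir-bft and mir-9378 had 0 mismatches. That of mir-bft lay 3 bp from its summit, those of mir-277 and mir-9378 at 19 and 21 bp, and that of mir-966 at 29 bp. A half-site, which is either AGGTCA, the word AGTTCA, the word GGGTCA or the word GGTTCA with no mismatch on either strand, which can be part of an inverted repeat, was found at 31 (37.3%), against 36.1% of all optimal peaks. A peak without these letters in the window says nothing about how the receptor was held there.

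The proteins that make, trim or act with miRNAs were examined by the gene body and 2 kb upstream. An optimal summit was found at 3 of these 11 genes (27.3%), against 30.6% of all protein-coding genes. A pooled summit was found at 5, and the matching pooled share of all protein-coding genes is not given here. AGO1, the Argonaute protein that carries most fly miRNAs, had 3, the strongest of rank 250 (replicates 198, 326 and 261), 60 bp from an AGO1 start. pasha, the partner of the nuclear nuclease Drosha, had 1 of rank 4474 (7395, 5665 and 3475), which lay 13 bp from the start of Mnat9. Tailor, which adds uridines to hairpin ends, had 1 of rank 6286 (9051, 5834 and 6653), 165 bp from the start of alphaTub84B. Only the AGO1 summit was thus nearest to the listed gene's own start. No optimal summit was found at drosha, Dcr-1 (the nuclease that cuts the hairpins), loqs (its partner), gw (which silences with AGO1), Ranbp21 (the hairpin exporter), Ars2, lin-28 (which acts on let-7) or Nbr (which trims mature miRNAs). Of these, gw had 2 pooled summits and Nbr 3.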

How the data were processed

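Peak lists from ChIP-seq (anti-GFP per the sample descriptions) of 3 EcR-GFP pupal replicates were used. Per the deposited notes, each list is in dm6; replicate lists came from 1 alignment with a control, the pooled list from all 3, and the optimal list from these by the irreproducible discovery rate. Column 7 is the signal value of each peak as deposited by the authors, and peaks were ordered by it inside each list. An aligner or a peak caller is not given in the sources used here. Read depth is unknown as well, and counting intervals were therefore not computed.

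Summits were set against Ensembl 115 genes and RefSeq release 6 sequence with Python 3.11.15 and numpy 2.4.6, and figures drawn with matplotlib 3.10.9. Coordinates are 1-based. The 485 mature products that the annotation lists as genes were left out. Counting was tested on planted summits. With 1 group, no test was made. Full values are given for the listed ecdysone-linked miRNAs, the 15 clusters with the strongest peaks and 11 pathway genes. Every other bound gene is named. The miRNA genes and all lists were chosen with earlier results of these data known. Alternatives changed distance, lists, replicates, region, match and motif settings.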

Additional observations from a re-analysis of the deposited data

How the results depend on the processing

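Distance mattered most. Within 500 bp and 5 kb of a hairpin, 26 and 109 miRNA genes were bound in place of 55, and the strongest 50% of the optimal list gave 32. Clusters within 5 kb numbered 89 in place of 47. Summits numbered 28, 48 and 224 within 500 bp, 1 kb and 5 kb, in place of 83. The let-7 locus held 2 summits within 2 kb and 5 within 5 kb of a hairpin, in place of 16 over the host. Allowing 2 mismatches gave an inverted repeat at 15 peaks in place of 4. Requiring a match in both remaining replicates with each replicate left out gave 46 to 48 genes, 39 to 40 clusters, 62 to 67 summits and 14 to 15 let-7 summits. The other settings run stayed within 1.5 times of the reported count, among them peak intervals (61 genes), 1 summit per region (52) and the 5′ side alone (37). Unknown depth limits what the absence of a peak can show. No paired analysis was possible because there is a single group.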
